A study of Mus musculus with 18 samples.

Results

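Bipolar cells carry the signal of photoreceptors to the inner retina. Rod bipolar cells and ON cone bipolar cells answer to light through the metabotropic glutamate receptor mGluR6, which in darkness keeps the cation channel TRPM1 closed through a G protein, and this response gives rise to the b-wave of the electroretinogram. OFF cone bipolar cells use ionotropic glutamate receptors instead. Described here are 9 genes that mark these cells, Vsx1, Otx2, Trpm1, Pcp2, Prkca, Cabp5, Isl1, Nyx and Gpr179, out of 35006 gene symbols in the count tables. They are defined by symbol and not by a threshold on their values, with earlier results of these data known. All 9 passed the filter on low counts and were among the 16183 genes tested.

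The data are poly(A) RNA-seq of whole retina from male mice at 24 weeks of age. WT mice were C57BL/6J (3 libraries), and Akita mice were C57BL/6-Ins2Akita/J (4 libraries), which carry 1 mutated copy of the insulin gene Ins2 and become diabetic. WT + NACET (6 libraries) and Akita + NACET (5 libraries) received N-acetylcysteine ethyl ester (NACET), a cell-permeable ester of the antioxidant N-acetylcysteine, in drinking water at 0.33 mg/mL, a daily intake of 50 mg/kg, from 4 to 24 weeks. The other groups drank water alone. The mutation is present in every cell, and the labels do not say whether each library came from a different animal, so p-values measure the spread between these libraries, which may be partly technical.

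Between 11495596 and 17814480 reads were counted in genes per library. The labelled tissue was checked with 8 rod markers, which summed to 85160 to 200358 CPM (read counts scaled to the effective library size). Libraries differed in the share of reads outside annotated exons, which was 14.9% to 17.1% in WT, 9.55% to 16.5% in WT + NACET, 9.67% to 13.3% in Akita and 14.3% to 19.8% in Akita + NACET. Akita did not overlap with WT or with Akita + NACET in this share. In 5 of 14472 genes with a mean of at least 1 CPM, all 6 WT + NACET libraries lay at least 4-fold above or below each of the other 12 libraries (0.1 CPM added), and none of the 9 genes was among them. Summed markers of pigment epithelium and melanocytes, cells that border the retina and can come along in dissection, reached 148 to 715 CPM in WT, 611 to 1399 CPM in WT + NACET, 69.4 to 242 CPM in Akita and 96.0 to 663 CPM in Akita + NACET.

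The 9 genes fall into 3 groups by role. Vsx1, Otx2 and Isl1 encode homeodomain transcription factors. Vsx1 acts in certain cone bipolar types, Otx2 in bipolar cells, photoreceptors and pigment epithelium, and Isl1 in ON bipolar cells as well as in starburst amacrine and ganglion cells. Trpm1, Nyx and Gpr179 encode parts of the mGluR6 cascade at the dendritic tips: the channel itself, the leucine-rich repeat protein nyctalopin that localises it, and an orphan receptor that anchors the regulators of G protein signalling. Loss of any of these 3 in humans causes congenital stationary night blindness. Trpm1 is also transcribed in melanocytes. Prkca (protein kinase C alpha) and Pcp2 (Purkinje cell protein 2, a modulator of G protein signalling) mark rod bipolar cells, Pcp2 also some ON cone bipolar cells, and Cabp5 encodes a calcium-binding protein of rod bipolar and some cone bipolar types.

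In the mm9 build all 9 are protein-coding genes at single loci. Vsx1 lies on chromosome 2 (150506438 to 150515096, minus strand), Otx2 on chromosome 14 (49277354 to 49287319, minus) and Isl1 on chromosome 13 (117088478 to 117099896, minus). Trpm1 spans chromosome 7 from 71298721 to 71414643 (plus), Nyx lies on the X chromosome (13043236 to 13066439, plus) and Gpr179 on chromosome 11 (97193423 to 97213391, minus). Prkca lies on chromosome 11 (107794701 to 108205242, minus), Pcp2 on chromosome 8 (3623371 to 3625545, minus) and Cabp5 on chromosome 7 (13983481 to 13994236, plus). Counts are of reads over their exons. Pcp2 shares 857 exonic bases with 2900053A13Rik on the opposite strand, and Prkca shares 30 with Apoh. Because counting ignored strand, reads in shared bases could not be assigned, and the level of Pcp2 is uncertain to that extent.

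Promoters are shown for Trpm1, Nyx and Gpr179, the genes of the mGluR6 cascade among the 9, and for Cabp5, which held the most matches to the motif TAATCC. Each line gives the 250 bases before a start site, 5′ to 3′ on the strand of the gene, from RefSeq on GRCm38.p6. Capitals mark TAATCC, the core bound by OTX2 and CRX, on either strand. TAATTA, a general homeodomain core that reads the same on both strands, was searched too, and both share the letters TAAT but no match overlapped another in these 4 windows.
Trpm1, chr7:64153585-64153834, plus strand: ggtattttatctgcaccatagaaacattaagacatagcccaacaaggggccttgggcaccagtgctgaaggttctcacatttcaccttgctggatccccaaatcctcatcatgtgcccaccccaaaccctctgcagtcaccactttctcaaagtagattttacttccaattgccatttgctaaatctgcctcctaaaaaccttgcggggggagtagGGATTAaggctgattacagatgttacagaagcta
Nyx, chrX:13460840-13461089, plus strand: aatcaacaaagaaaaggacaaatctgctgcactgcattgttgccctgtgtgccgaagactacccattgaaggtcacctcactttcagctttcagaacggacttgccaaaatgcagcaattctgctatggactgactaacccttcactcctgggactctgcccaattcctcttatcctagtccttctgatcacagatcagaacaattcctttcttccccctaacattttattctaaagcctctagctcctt
Gpr179, chr11:97352357-97352606, minus strand: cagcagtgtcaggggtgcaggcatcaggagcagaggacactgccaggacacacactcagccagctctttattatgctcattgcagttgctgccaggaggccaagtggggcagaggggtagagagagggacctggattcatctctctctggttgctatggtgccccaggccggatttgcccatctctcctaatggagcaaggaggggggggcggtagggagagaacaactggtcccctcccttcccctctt
Cabp5, chr7:13397905-13398154, plus strand: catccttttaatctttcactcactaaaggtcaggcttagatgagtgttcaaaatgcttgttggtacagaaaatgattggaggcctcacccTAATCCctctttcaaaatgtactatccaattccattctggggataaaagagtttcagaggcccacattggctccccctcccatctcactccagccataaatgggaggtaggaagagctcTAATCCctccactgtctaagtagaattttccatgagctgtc

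Trpm1 had 1 TAATCC match, on the reverse strand, that began 34 bases before the start site, and Cabp5 had 2 on the forward strand at 160 and 41 bases. Neither motif was found in these windows of Nyx and Gpr179. RefSeq gave 16 windows for the 9 genes, since Otx2, Pcp2 and Trpm1 have several start sites. Of the 9 genes, 4 (Otx2, Trpm1, Cabp5 and Isl1) had TAATCC in 1 of their windows. By window this was 4 of the 16, against 6.25% of all 32851 windows in the table. TAATTA was present in windows of 2 genes, Otx2 and Pcp2. By window this was 3 of the 16, against 4.84% of all windows. Genes with several windows have more chances to hold a match.

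Levels between genes were compared as CPM per kilobase of exon. Pcp2 had the highest median over 18 libraries, 69.3, followed by Otx2 with 48.6, Cabp5 with 27.4 and Isl1 with 27.2. Trpm1 had a median of 12.7 and Prkca of 11.1, then came Vsx1 with 5.26, Gpr179 with 2.92 and Nyx with 1.18 CPM per kilobase. Cabp5 exceeded Isl1 in 9 of 18 libraries and Trpm1 exceeded Prkca in 12, so these neighbours were not ordered beyond their spread. Pcp2 exceeded Otx2 in 16 libraries, and each remaining neighbour was ordered alike in all 18. Raw counts ranged from 50 to 139 for Nyx, the gene with the largest counting error, and from 1266 to 3718 for Trpm1.

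Among the transcription factors, Vsx1 had 19.4, 28.6 and 19.9 CPM in WT and 23.4, 19.9, 10.5 and 17.4 CPM in Akita. In Akita + NACET it had 17.1, 20.7, 18.6, 25.9 and 26.5 CPM, and in WT + NACET its lowest, median and highest values were 13.2, 19.5 and 23.5 CPM. All 4 groups overlapped. Otx2 had 124, 165 and 180 CPM in WT, 180, 170, 168 and 232 CPM in Akita, 129, 174, 162, 183 and 166 CPM in Akita + NACET, and 135, 147 and 166 CPM (lowest, median, highest) in WT + NACET. It was the only one of the 9 genes with its highest group mean in Akita, 187 ± 29.9 CPM (SD, n = 4), but 1 WT library (180 CPM) lay within the range of Akita. Isl1 had 82.8, 72.2 and 62.8 CPM in WT, 70.0, 71.4, 52.6 and 50.1 CPM in Akita and 64.9, 65.5, 74.0, 61.6 and 71.1 CPM in Akita + NACET, with 52.8, 69.8 and 89.0 CPM as the lowest, median and highest of WT + NACET. Its groups overlapped throughout.

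In the mGluR6 cascade, Trpm1 had 142, 259 and 153 CPM in WT and 140, 128, 80.5 and 106 CPM in Akita. It had 106, 181, 128, 176 and 243 CPM in Akita + NACET, and 96.1, 161 and 185 CPM (lowest, median, highest) in WT + NACET. Every Akita library lay below every WT library (nearest values 140 and 142 CPM), and WT replicate 2 and Akita + NACET replicate 5 stood highest. Nyx had 6.61, 10.2 and 5.96 CPM in WT, 5.75, 6.20, 3.27 and 6.05 CPM in Akita, 5.10, 8.07, 6.13, 8.64 and 8.56 CPM in Akita + NACET, and 3.79, 6.10 and 7.79 CPM in WT + NACET. Here 2 Akita libraries lay above the lowest WT library. Gpr179 had 36.3, 46.4 and 31.4 CPM in WT, 31.1, 24.0, 16.3 and 22.0 CPM in Akita and 26.2, 38.8, 22.9, 34.8 and 53.2 CPM in Akita + NACET, with 17.8, 25.3 and 41.6 CPM as the lowest, median and highest of WT + NACET. Again all Akita libraries lay below all WT libraries, with 31.1 and 31.4 CPM as the nearest values.

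Of the remaining markers, Prkca had 97.3, 98.0 and 100.2 CPM in WT, 113, 108, 85.0 and 98.2 CPM in Akita, 110, 113, 98.7, 116 and 148 CPM in Akita + NACET, and 72.4, 90.0 and 108 CPM in WT + NACET. Its WT libraries were close together and lay within the range of Akita. Pcp2 had 120, 167 and 129 CPM in WT, 138, 138, 78.0 and 111 CPM in Akita, 104, 131, 129, 128 and 153 CPM in Akita + NACET, and 93.4, 122 and 184 CPM in WT + NACET. Cabp5 had 67.9, 79.9 and 73.2 CPM in WT, 70.6, 73.9, 41.3 and 72.9 CPM in Akita, 59.7, 72.3, 65.7, 73.8 and 87.6 CPM in Akita + NACET, and 44.4, 60.2 and 79.6 CPM in WT + NACET. Both genes overlapped between all groups. Akita replicate 3 was the lowest of the 4 Akita libraries for 8 of the 9 genes and the lowest of all 18 libraries for 6, and its share of reads outside exons, 9.67%, was also the lowest of its group.

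**Figure D1:**
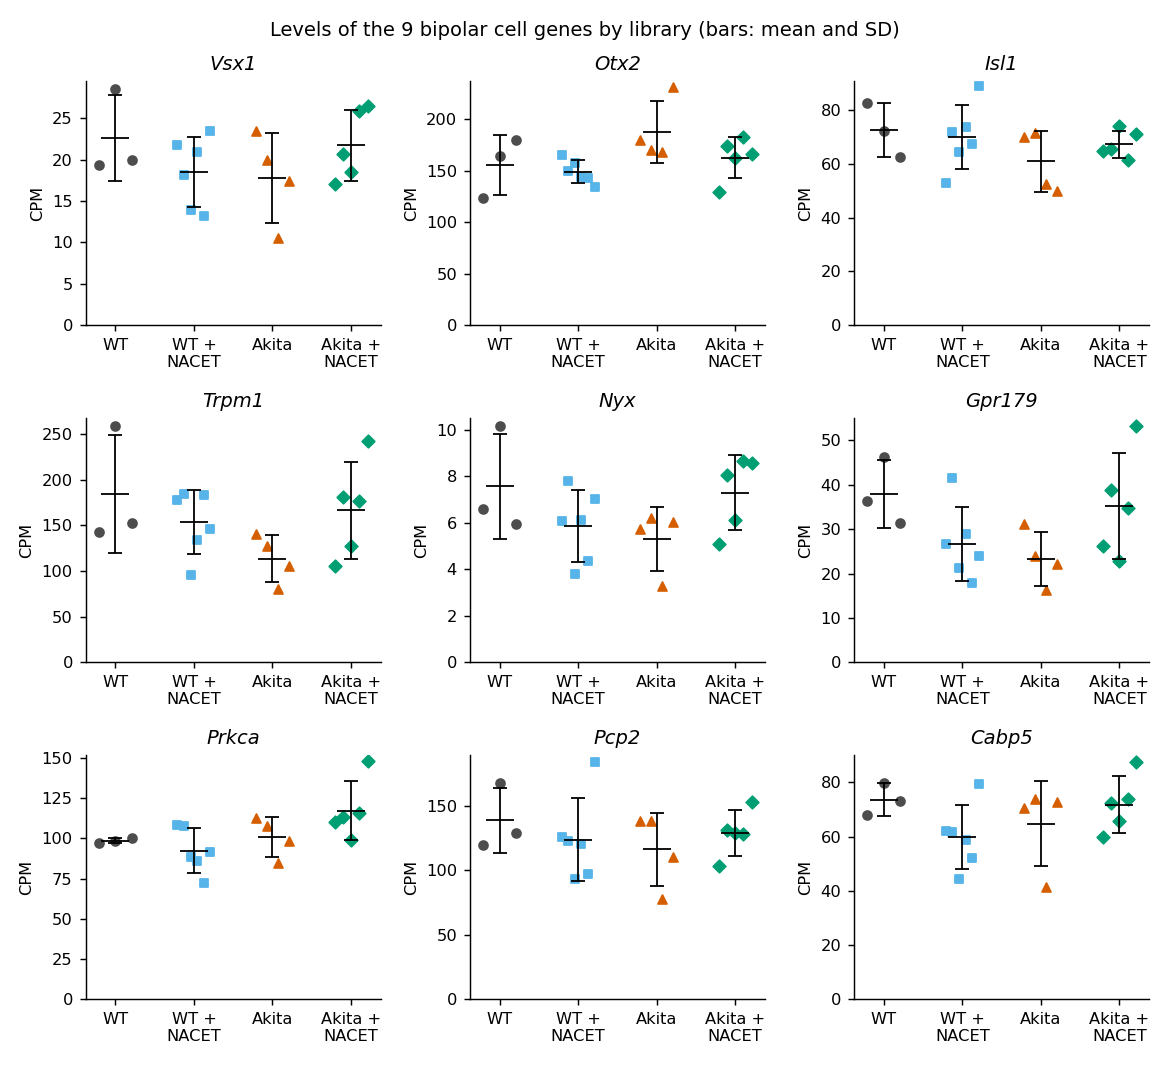
Levels of the 9 bipolar cell genes in CPM (vertical axes from 0) by group (horizontal axes). Each point is a library and bars give the mean and SD. The 4 Akita libraries lie below the 3 WT libraries for Trpm1 and Gpr179, and the groups overlap for the other 7 genes.

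The first question was what differed in the diabetic retina, Akita against WT. Of the 9 bipolar cell genes 7 had a log2 fold change below 0, but none was a DEG (differentially expressed gene) at an adjusted p of at most 0.05, against 7.64% of all genes tested. That background of 1237 genes was 0 without WT replicate 1, 0 without WT replicate 2 and 234 without Akita replicate 4. The 2 with the lowest p encode parts of the mGluR6 cascade. Trpm1 had 184 ± 64.4 CPM (SD, n = 3) in WT and 114 ± 26.2 CPM (SD, n = 4) in Akita (log2 fold change −0.70 ± 0.29 SE, adjusted p = 0.135). Gpr179 had 38.0 ± 7.65 CPM (SD, n = 3) and 23.4 ± 6.11 CPM (SD, n = 4) in the same order (log2 fold change −0.70 ± 0.29 SE, adjusted p = 0.137). Its 95% interval, from −1.32 to −0.08, does not include 0, and neither does that of Trpm1 (−1.31 to −0.08). Nyx followed with −0.51 (interval −1.06 to 0.05, adjusted p = 0.225).

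The log2 fold changes of the others between Akita and WT were −0.34 for Vsx1, −0.26 for Pcp2, −0.25 for Isl1, −0.19 for Cabp5, 0.03 for Prkca and 0.26 for Otx2, with adjusted p from 0.209 for Otx2 to 0.892 for Prkca. For Prkca the interval of −0.25 to 0.32 corresponds to a level of 0.843 to 1.24 times that of WT. The median over the 9 genes was −0.26, with 7 of 9 below 0, beside a median of −0.01 and 51.6% below 0 over all genes tested. Libraries did not overlap for 2 of the 9, Trpm1 and Gpr179, against 23.2% of all genes. At an unadjusted p below 0.05 there were the same 2 of 9, against 27.0% of all genes. In the DESeq2 fit of these 2 groups alone, Trpm1 (log2 fold change −0.68, adjusted p = 0.0444) and Gpr179 (−0.68, adjusted p = 0.0302) were DEGs, as were 4.50% of the genes in that fit. In bulk retina fewer cells of a type and less RNA per cell cannot be told apart.

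Other genes of bipolar cells were taken from lists of the mGluR6 cascade, bipolar transcription factors, rod bipolar markers and cone bipolar markers, 39 genes in all, each tested. Of these, 36 were below 0 in Akita vs WT, 5 were downregulated DEGs and 2 upregulated, with a median log2 fold change of −0.40. Over all genes tested, 3.68% were downregulated DEGs and 3.96% upregulated. The number of DEGs among the 39 was 0 without WT replicate 1, WT replicate 2 or Akita replicate 4. The receptor gene Grm6 had 45.1, 54.0 and 38.7 CPM in WT and 40.05, 37.3, 17.5 and 28.3 CPM in Akita (log2 fold change −0.57 ± 0.31 SE, adjusted p = 0.248). All 11 bipolar transcription factors were below 0, with a median of −0.33 and no DEG. Among the 8 cascade genes Rgs11 was downregulated by 0.66 on the log2 scale (adjusted p = 0.0435). It encodes a regulator that ends G protein signalling at the ON bipolar dendrite, and all its Akita libraries (21.1 to 35.3 CPM) lay below those of WT (39.9 to 50.4 CPM). Gnb5 and Rgs9bp, which photoreceptors also use to end the light response, were upregulated, with log2 fold changes of 0.53 (adjusted p = 0.0299) and 0.56 (adjusted p = 0.0440).

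Of the 3 rod bipolar markers, Tpbg was downregulated, from 21.3 ± 5.88 CPM (SD, n = 3) to 11.2 ± 1.63 CPM (SD, n = 4), or −0.92 on the log2 scale (adjusted p = 0.0206). All 17 cone bipolar markers were below 0 with a median of −0.54, and 3 were DEGs: Erbb4 (−1.02, adjusted p = 0.0393), Lrrtm1 (−0.67, adjusted p = 0.0406) and Pcdh17 (−0.68, adjusted p = 0.0300). Genes of other cells moved as well in this comparison. Of 8 amacrine markers 6 were downregulated (median −0.56), and their summed level was 648 to 861 CPM in WT and 401 to 571 CPM in Akita. Of 8 rod markers 3 were upregulated (median 0.41), and their sum was 91497 to 125366 CPM in WT and 131464 to 200358 CPM in Akita. Of the Mueller glia markers 2 of 8 were downregulated (median −0.29), and no DEG was found among 8 cone (median 0.21), 8 ganglion cell (−0.37) or 4 horizontal cell markers (−0.23). The 9 pigment epithelium and melanocyte markers were all below 0, with a median of −1.51 and no DEG. What these shifts contribute to the values of the bipolar genes was not tested.

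The next question was what treatment did in diabetic retina, Akita + NACET against Akita. Here 8 of the 9 genes were above 0 and none was a DEG, against 9.65% of all genes. This background of 1562 genes was 1 without Akita replicate 4, 101 without Akita + NACET replicate 5, 425 without Akita + NACET replicate 2, and 808, 993 and 872 without Akita replicate 1, Akita replicate 3 or Akita + NACET replicate 4. Gpr179 had 35.2 ± 11.9 CPM (SD, n = 5) in treated Akita (log2 fold change 0.59 ± 0.26 SE, interval 0.04 to 1.15, adjusted p = 0.147). Trpm1 had 167 ± 53.2 CPM (SD, n = 5; log2 fold change 0.55 ± 0.26 SE, interval 0.01 to 1.10, adjusted p = 0.168). For Nyx the log2 fold change was 0.46 ± 0.24 SE (adjusted p = 0.200). The values were 0.29 for Vsx1, 0.21 for Prkca, 0.15 for Pcp2, 0.15 for Cabp5, 0.14 for Isl1 and −0.20 for Otx2, with adjusted p of at least 0.238.

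The median over the 9 genes was 0.21, beside −0.00 over all genes, and 49.6% of all genes were above 0. In none of the 9 were the libraries of Akita + NACET and Akita apart, against 14.1% of all genes, and 2 of 9 had an unadjusted p below 0.05, against 29.0%. This comparison shares the 4 Akita libraries with Akita vs WT, which alone favours opposite signs in the 2 comparisons. Among the 39 other bipolar genes 35 were above 0, 4 were upregulated and 1 downregulated, with a median of 0.39. Over all genes tested, 4.51% were upregulated DEGs and 5.14% downregulated. The number of DEGs among the 39 was 0 without Akita replicate 4 or Akita + NACET replicate 5. The cone bipolar markers Slitrk5 (0.87, adjusted p = 0.0193), Tacr3 (0.76, adjusted p = 0.0214) and Pcdh17 (0.62, adjusted p = 0.0262) were upregulated, as was Grik1 (0.73, adjusted p = 0.0425), a kainate receptor subunit of OFF cone bipolar cells named after its value was seen. Rgs9bp was downregulated by 0.45 on the log2 scale (adjusted p = 0.0493). Grm6 had 0.46 (adjusted p = 0.283). In the same comparison 5 of 8 rod markers and 4 of 8 cone markers were downregulated (medians −0.41 and −0.44), and 3 of 8 amacrine markers upregulated (median 0.40). Of the 9 pigment epithelium and melanocyte markers 8 were above 0 (median 0.73), with no DEG. The part of these shifts in the values of the bipolar genes was not tested.

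**Figure D2:**
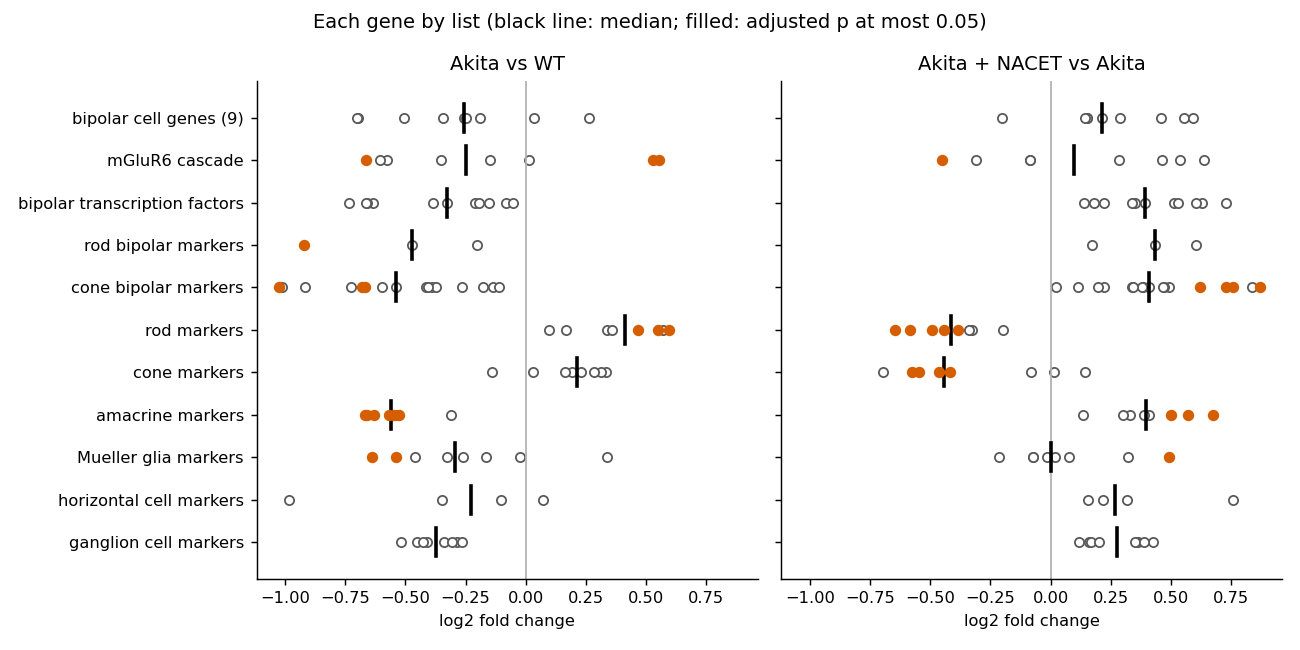
Log2 fold changes (horizontal axes) of the genes of each list (rows) in Akita vs WT (left) and Akita + NACET vs Akita (right). Points are genes, filled where the adjusted p was at most 0.05, and black lines are medians. The 9 bipolar cell genes have medians of −0.26 and 0.21 with no filled point, rod markers medians of 0.41 and −0.41, and amacrine markers −0.56 and 0.40.

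In normoglycemic retina the same question was put to WT + NACET against WT. All 9 genes were below 0 and none was a DEG, against 1.48% of all genes tested. This comparison shares the 3 WT libraries with Akita vs WT, which alone favours the same sign in both. WT replicate 2 was the highest WT library for 6 of the 9 genes. Most of the 9 also went together across libraries, so their signs are not separate observations. Gpr179 had 26.7 ± 8.29 CPM (SD, n = 6) in WT + NACET (log2 fold change −0.51 ± 0.27 SE, interval −1.08 to 0.06, adjusted p = 0.302), followed by Nyx with −0.36, Cabp5 with −0.30, Vsx1 with −0.28 and Trpm1 with −0.26. Pcp2 had −0.16, Prkca −0.09, Otx2 −0.07 and Isl1 −0.05. The median was −0.26, beside −0.01 over all genes, of which 52.1% were below 0. No gene of the 9 had an unadjusted p below 0.05 (19.5% of all genes), and none had libraries that did not overlap (11.5% of all genes).

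Of the 39 other bipolar genes 1 was a DEG between WT + NACET and WT. Gnb3, the G protein subunit of cones and ON bipolar cells, was upregulated from 417 ± 27.0 CPM (SD, n = 3) to 566 ± 42.0 CPM (SD, n = 6), or 0.44 on the log2 scale (adjusted p = 0.0406). Grm6 had −0.24 (adjusted p = 0.679). In the same comparison the rod, cone, amacrine and pigment epithelium and melanocyte markers had medians of 0.27, 0.24, −0.29 and 0.98, with no DEG. Treatment and any further way in which the WT + NACET mice differed cannot be told apart here.

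What remained of the difference from untreated WT mice was asked of Akita + NACET against WT. None of the 9 was a DEG, against 0.00618% of all genes, which is 1 gene. The log2 fold changes ran from −0.14 for Trpm1 to 0.25 for Prkca with a median of −0.06, and each adjusted p was 0.9996. The intervals were wide for the cascade, from −0.73 to 0.44 for Trpm1, −0.57 to 0.48 for Nyx and −0.70 to 0.48 for Gpr179. For Trpm1 and Nyx, differences of the size seen between Akita and WT lay within them and could not be told from none. For Gpr179 that size (−0.70) lay at the lower limit of the interval. No gene of the 9 had an unadjusted p below 0.05 (4.63% of all genes) or libraries that did not overlap (4.17%). None of the 39 other bipolar genes was a DEG.

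Genotype under treatment was examined in Akita + NACET against WT + NACET. Genotype and any further way in which the WT + NACET mice differed cannot be told apart here. Prkca was upregulated, from 92.3 ± 13.8 CPM (SD, n = 6) in WT + NACET to 117 ± 18.3 CPM (SD, n = 5) in Akita + NACET (log2 fold change 0.34 ± 0.11 SE, interval 0.12 to 0.56, adjusted p = 0.0388). It was the only DEG of the 9, against 13.3% of all genes tested, and the libraries of the 2 groups overlapped between 98.7 and 108 CPM. The call was lost in 7 of the 18 fits that left out 1 library, with the lowest value without Akita + NACET replicate 5 (0.25, adjusted p = 0.146), which had the highest Prkca level of all, 148 CPM, and the highest share of reads outside exons, 19.8%.

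The other 8 genes in Akita + NACET vs WT + NACET had log2 fold changes from −0.05 for Isl1 to 0.40 for Gpr179 (adjusted p = 0.254), and the median of the 9 was 0.23. Of the 39 other bipolar genes 3 were upregulated, Tacr3 (0.59, adjusted p = 0.0222), Slitrk5 (0.57, adjusted p = 0.0249) and Pcdh17 (0.50, adjusted p = 0.0269), and Gnb3 was downregulated by 0.68 on the log2 scale (adjusted p = 0.000149). Over all genes tested, 6.01% were upregulated DEGs and 7.26% downregulated. In the same comparison 5 of 8 cone markers (median −0.54) and 2 of 8 rod markers (median −0.31) were downregulated. So were 1 of 8 Mueller glia markers (median −0.20) and 1 of 9 pigment epithelium and melanocyte markers (median −1.36). Of the microglia markers 3 of 5 were downregulated (median −0.67), and 1 of 4 horizontal cell markers was upregulated (median 0.28). The part of these shifts in the values of the bipolar genes was not tested here. None of the 9 genes had libraries that did not overlap, against 8.01% of all genes.

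Whether NACET acted differently in the genotypes was tested as the interaction, the log2 fold change with NACET in Akita minus that in WT. The WT + NACET libraries enter it too, so any further way in which those mice differed cannot be told apart here either. The interaction also rests on the same WT and Akita libraries as the comparisons above. It was positive for 8 of the 9 genes, against 50.3% of all genes, with a median of 0.45. Gpr179 passed the threshold with 1.10 ± 0.38 (SE, interval 0.31 to 1.89, adjusted p = 0.0478), the only one of the 9, against 20.3% of all genes tested. Nyx (0.83, adjusted p = 0.0864) and Trpm1 (0.82, adjusted p = 0.125) came next, and the others ran from −0.13 for Otx2 to 0.57 for Vsx1. Of the 39 other bipolar genes 14 passed, 12 of them with a more positive value in Akita, among them Rgs11 (1.08, adjusted p = 0.00805). The bipolar factors Irx6 (0.91), Neurod4 (1.002) and Fezf2 (1.24) passed too, and these 3 are named after their values were seen. Grm6 had 0.70 (adjusted p = 0.216). Markers of other cells passed as well, 7 of 8 rod markers (median −0.75) and 4 of 8 cone markers (median −0.78) with a more negative value in Akita, and 5 of 8 amacrine markers (median 0.66) with a more positive one. Their part in the values of the bipolar genes was not tested. The call of Gpr179 was lost with no filter on low counts (adjusted p = 0.102) and in 13 of the 18 fits that left out 1 library, with values from 0.90 without Akita + NACET replicate 5 to 1.27 without WT + NACET replicate 2.

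**Figure D3:**
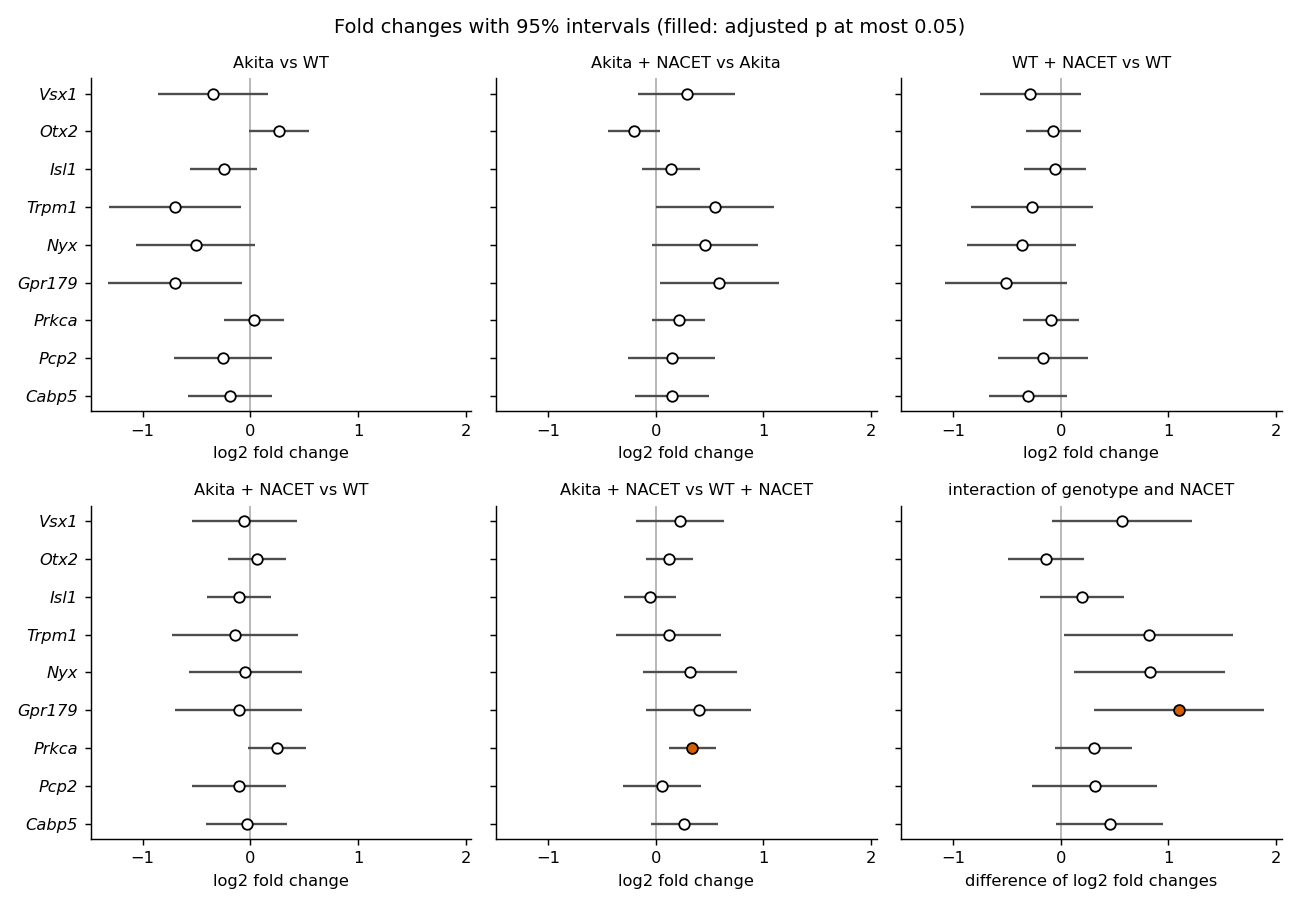
Log2 fold changes of the 9 genes (rows) in the 5 comparisons and, in the last panel, the interaction, which is a difference of log2 fold changes. Points are estimates, lines are 95% intervals, and filled points have an adjusted p of at most 0.05. The filled points are Prkca in Akita + NACET vs WT + NACET (0.34) and Gpr179 in the interaction (1.10).

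The levels of several of these genes went with the share of reads outside exons. In a fit with group and 1 slope on this share common to all groups, chosen after seeing the data, the slope for Gpr179 was 0.16 ± 0.02 log2 units per percentage point (SE, adjusted p = 0.00130) and for Prkca 0.06 ± 0.02 (SE, adjusted p = 0.0185). These 2 of the 9 passed the threshold, against 8.53% of all genes tested. The slope was 0.12 for Trpm1 (adjusted p = 0.0579), 0.09 for Nyx (adjusted p = 0.135) and 0.07 for Vsx1 (adjusted p = 0.239), and near 0 for Isl1 (0.01) and Otx2 (−0.00). Among the 39 other bipolar genes 31 slopes were above 0 and 7 passed, all rising with the share, including Grm6 (0.15, adjusted p = 0.0152) and Rgs11 (0.09, adjusted p = 0.0186). Over all genes tested 50.3% of slopes were above 0, and 4.62% of genes passed and rose with the share. None of the 8 rod markers had a slope above 0 and 1 passed.

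With the share of reads outside exons in the fit, none of the 9 genes was a DEG in any comparison or in the interaction. Gpr179 then had 0.043 in Akita vs WT, −0.21 in treated against untreated Akita and −0.24 in the interaction, and Prkca had 0.10 in Akita + NACET vs WT + NACET (adjusted p = 0.674). Among all genes in that fit, 0.00% were DEGs between Akita and WT and 0.00% between treated and untreated Akita, where 0.377% were DEGs in WT + NACET vs WT, 0.00618% in Akita + NACET vs WT, 1.20% in Akita + NACET vs WT + NACET and 0.105% in the interaction. Since Akita overlapped with neither WT nor Akita + NACET in this share, the share and the group cannot be told apart in those 2 comparisons. The interaction contains both of them, so the same limit holds for it. WT + NACET and WT overlapped in the share only in part, with medians of 12.6% and 17.0%.

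**Figure D4:**
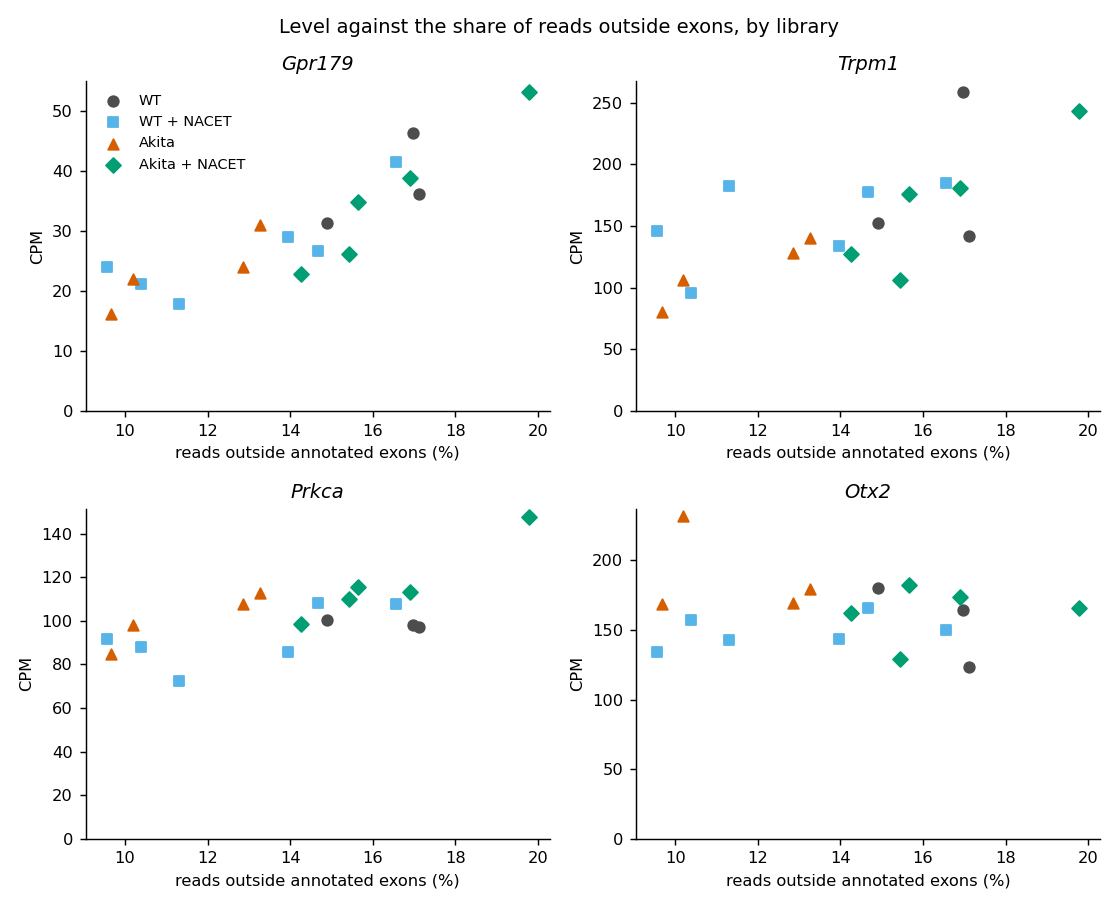
Level of Gpr179, Trpm1, Prkca and Otx2 in CPM (vertical axes from 0) against the percentage of reads outside annotated exons (horizontal axes). Points are the 18 libraries, with colour and shape for the group. Gpr179 has 16.3 CPM at 9.67% and 53.2 CPM at 19.8% (Pearson r = 0.89 over the 18 libraries), and Otx2 has r = −0.14.

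Across the 18 libraries the genes went together to different degrees. These correlations of log2(CPM + 1) describe libraries that share their composition and depth. Trpm1, Nyx and Gpr179 had pairwise Pearson r of 0.76 to 0.85 over all libraries and 0.71 to 0.80 after removal of group means. For the 7 genes other than Otx2 and Isl1, the 21 pairwise r ran from 0.41 to 0.90, the highest between Vsx1 and Pcp2. With these 7 genes Otx2 had r of −0.034 to 0.26 and Isl1 of −0.00080 with Prkca to 0.58 with Pcp2, and Otx2 and Isl1 went in opposite directions (r = −0.66). Otx2 went with the summed rod markers (r = 0.55) and against the summed amacrine markers (r = −0.63), while Isl1 went against the rod markers (r = −0.57) and with the amacrine markers (r = 0.64). Both signs held after removal of group means. Gpr179 had r = 0.89 with the share of reads outside exons, Nyx 0.70, Prkca 0.69, Trpm1 0.69 and Otx2 −0.14. The pigment epithelium and melanocyte markers had r = 0.19 with Trpm1 and −0.48 with Otx2, and −0.10 and −0.09 after removal of group means.

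The genes most like the mean of the 9 across the 18 libraries, out of 14463 others with a mean of at least 1 CPM, were Lhx4 (Pearson r = 0.95), Prox1 (0.94), A730046J19Rik (0.93), Frmd3 (0.93), Neurod4 (0.93), Gabrr1 (0.93), Lrtm1 (0.92) and Tmem215 (0.92). Lhx4 and Neurod4 were also on the list of bipolar transcription factors. Lhx4 ranged from 6.97 to 18.5 CPM and Neurod4 from 61.7 to 213 CPM. Gabrr1 encodes a subunit of the GABA receptor of rod bipolar terminals. For single genes the closest was Lphn2 for Gpr179 (r = 0.96), Lhx4 for Nyx (0.93), Smad3 for Trpm1 (0.89), Nrn1l for Vsx1 (0.93), Rprd1b for Otx2 (0.93) and Gng2 for Isl1 (0.88). Car8, itself a rod bipolar marker, was closest to Pcp2 (r = 0.94), Bhlhe41 to Prkca (0.88) and Lrtm1 to Cabp5 (0.92).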

How the data were processed

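RNA of whole retina was measured in 18 libraries, grouped by their labels. Per the study's methods, the authors made poly(A) libraries (TruSeq RNA v2, single end), aligned them with TopHat 2.1.0 to mm9 and counted reads over exons with HTSeq-count 0.11.2, without strand. The deposited values are these raw counts. Reads that matched several genes or places were not counted. As in the study, 185 rRNA genes (0.977% of counts on average) were removed; the unnamed entry (0.00544%) and 5 summary entries did not enter library sizes.

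Genes were tested with edgeR 4.0.16 (quasi-likelihood F test, R 4.3.3, TMM, filterByExpr with a minimum count of 10, robust, all 4 groups in 1 fit), with Benjamini-Hochberg adjustment over 16183 genes and DEGs at an adjusted p of at most 0.05. SE come from the F statistic, and intervals are 95%. The fit was tested on simulated data. The lowest chi-square per gene between 2 libraries of a group was 4.82, so within groups none was a repeat sequencing of another library. Pairs across groups, and libraries from the same animal, were not checked. Gene totals of 11495596 to 17814480 set the precision. The share of reads outside exons came from the summary entries.

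The 9 genes and all lists were chosen with earlier results of these data known. All 9 are named in every comparison. Of the lists, Grm6 and at most the 3 DEGs with the lowest p per list and comparison are named, others being marked. Of the listed genes, Lrit3 and Slc18a3 were not used here, and 1 that the naming rule covers is not reported here. Likeness used log2(CPM + 1). Alternatives were DESeq2 1.42.0, other filters, size factors and groups, rRNA genes kept, a replicate block, the share outside exons as covariate and each library left out. Markers of microglia and endothelium were also summed: in Akita vs WT microglia gave no DEG and endothelium 1 of 5. In Akita + NACET vs WT + NACET microglia gave 3 of 5.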

Additional observations from a re-analysis of the deposited data

Results flagged for a closer look

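In 33 sets of libraries (11 measures in the 3 groups with over 3 libraries) the distance of the outermost library from the rest was compared with Dixon's critical value, which chance exceeds in about 1 of 20 sets, and 3 values from 2 libraries exceeded it. Akita replicate 3 had 41.3 CPM of Cabp5, where the next Akita library had 70.6, and 3.27 CPM of Nyx, where the next had 5.75. WT + NACET replicate 6 had 184 CPM of Pcp2, and the next library of its group had 126. Without Akita replicate 3 the log2 fold change of Cabp5 in Akita + NACET vs Akita was −0.01 instead of 0.15.

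The log2 fold change of Gpr179 with NACET differed between the genotypes by 1.10. It was −0.51 in WT, where 5 of 6 treated libraries lay below all WT libraries, and 0.59 in Akita. With the share of reads outside exons in the fit, these values were 0.031 in WT, −0.21 in Akita and −0.24 for the difference. The call was lost in 13 of the 18 fits that left out 1 library.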

How the results depend on the processing

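The number of the 9 genes called DEGs was 0 under all alternatives in the comparisons other than Akita + NACET vs WT + NACET and the interaction, except 2 in Akita vs WT with DESeq2 and only these groups. Prkca in Akita + NACET vs WT + NACET (1 called) gave 0 with the outside-exon share as covariate and 0 without both Akita + NACET replicate 5 and WT replicate 2 (0.25, adjusted p = 0.152), and leaving out 1 library gave 0 to 1. The interaction (1 called, Gpr179) gave 0 with no filter, 0 with the covariate, 0 without both Akita replicates 3 and 4 (0.89, adjusted p = 0.180), 0 without both Akita + NACET replicate 5 and WT replicate 2 (0.75, adjusted p = 0.203), and 0 to 1 on leaving out 1 library. The drops of 2 libraries were chosen after seeing the data. Among all genes, leaving out 1 library gave 72 to 461 DEGs in WT + NACET vs WT (240 with all; 72 without WT replicate 1, 77 without WT replicate 2, 110 and 153 without WT + NACET replicates 3 and 5, 423 without Akita replicate 4, 461 without Akita + NACET replicate 5), 860 to 2710 in Akita + NACET vs WT + NACET (2148 with all; 860 without Akita + NACET replicate 5, 1124 and 1265 without WT + NACET replicates 3 and 5, 1369 and 1342 without Akita + NACET replicates 2 and 4) and 1699 to 3524 in the interaction (3289 with all; 1699 and 1730 without WT replicates 1 and 2). Over the 18 fits without 1 library the adjusted p ranged from 0.0212 to 0.146 for Prkca and from 0.0169 to 0.129 for Gpr179.

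No common pairing by replicate number was seen: over 22 same-numbered pairs the deviations from group means correlated by −0.33 to 0.34, 4 of them above 0.1. Pairs with different numbers were not compared, so whether a batch went with the number was not tested. With the replicate block 0 of the 9 were called in Akita + NACET vs WT + NACET (Prkca 0.34, adjusted p = 0.0795). In the interaction 3 were called, Gpr179, Nyx (0.97, adjusted p = 0.0249) and Cabp5 (0.63, adjusted p = 0.0400). Without the block 20.3% of all genes passed in the interaction, and the share with the block is not given here. With the block Isl1 in Akita + NACET vs WT + NACET changed sign to 0.027. Of the 39 other bipolar genes the block gave 3 DEGs in Akita vs WT, 1 between treated and untreated Akita and 0 in WT + NACET vs WT. Among all genes the block gave 507 DEGs in Akita vs WT, 219 between treated and untreated Akita and 1363 in Akita + NACET vs WT + NACET.

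For these 39 genes (7, 5, 1, 0, 4 and 14 called in the order of the comparisons), DESeq2 with all groups gave 11 in Akita vs WT, 8 between treated and untreated Akita and 2 in WT + NACET vs WT. Over all genes in that fit 7.51%, 8.52% and 2.60% were DEGs in the same order. With 2 groups DESeq2 gave 10 of the 39 between treated and untreated Akita and 4 in WT + NACET vs WT. Over all genes 6.84% and 3.59% were DEGs in these fits. With 2 groups edgeR gave 0 in Akita vs WT and 3 between treated and untreated Akita, against 0.967% and 4.56% of all genes. No filter gave 3 of the 39 between treated and untreated Akita, and 1010 DEGs among all genes. The covariate gave 1 of the 39 in Akita + NACET vs WT + NACET. It gave 0 in Akita vs WT, in the interaction and for treatment within either genotype, and the shares over all genes in that fit are given above. Without both Akita replicates 3 and 4 there were 0 of the 39 in Akita vs WT, 0 between treated and untreated Akita and 6 in the interaction. Among all genes there were 13, 1 and 1660 in the same order. Without both Akita + NACET replicate 5 and WT replicate 2 there were 0 of the 39 in Akita vs WT and for treatment within either genotype. That fit gave 1 in Akita + NACET vs WT + NACET and 2 in the interaction. Among all genes it gave 45 in Akita vs WT, 8 between treated and untreated Akita and 97 in WT + NACET vs WT. In Akita + NACET vs WT + NACET it gave 876, and in the interaction 1074. For the 39 genes, leaving out 1 library gave 0 to 9 in Akita vs WT. The 0 came without WT replicate 1, WT replicate 2 or Akita replicate 4. Between treated and untreated Akita it gave 0 to 7 (0 without Akita replicate 4 or Akita + NACET replicate 5). In WT + NACET vs WT it gave 0 to 1, in Akita + NACET vs WT + NACET 1 to 6 and in the interaction 6 to 16.

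The covariate changed 18 signs among the 54 log2 fold changes of the 9 genes. Gpr179 had 0.043 in Akita vs WT, −0.21 between treated and untreated Akita, 0.031 in WT + NACET vs WT, −0.19 in Akita + NACET vs WT + NACET and −0.24 in the interaction. Trpm1 had −0.028 in Akita + NACET vs Akita, 0.16 in WT + NACET vs WT, −0.34 in Akita + NACET vs WT + NACET and −0.18 in the interaction. Prkca had −0.11, 0.13 and −0.24 in Akita + NACET vs Akita, WT + NACET vs WT and the interaction, and 0.10 in Akita + NACET vs WT + NACET. Vsx1 had −0.045, −0.041 and −0.020 in Akita + NACET vs Akita, Akita + NACET vs WT + NACET and the interaction. Cabp5 had −0.031 in Akita + NACET vs Akita, and Pcp2 −0.064 and Nyx −0.0096 in Akita + NACET vs WT + NACET.

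Leaving out 1 library moved these values across 0: Prkca in Akita vs WT (−0.023 to 0.11), Cabp5 in Akita + NACET vs Akita (−0.012 to 0.22), and in WT + NACET vs WT Otx2 (−0.21 to 0.050), Trpm1 (−0.42 to 0.058) and Isl1 (−0.14 to 0.053). In Akita + NACET vs WT they were Vsx1 (−0.16 to 0.15), Otx2 (−0.081 to 0.19), Trpm1 (−0.32 to 0.18), Pcp2 (−0.20 to 0.052), Cabp5 (−0.12 to 0.026), Nyx (−0.18 to 0.22) and Gpr179 (−0.31 to 0.058). In Akita + NACET vs WT + NACET they were Trpm1 (−0.054 to 0.25), Pcp2 (−0.010 to 0.21) and Isl1 (−0.12 to 0.027), and in the interaction Otx2 (−0.23 to 0.0064). Across all alternatives 1371 of 1444 log2 fold changes kept their direction and side of the threshold. Nearly all of these were not called in the main fit, so this count says little about how stable a call is. The 2 that were called, Prkca in Akita + NACET vs WT + NACET and Gpr179 in the interaction, lost their calls in 7 and 13 of the 18 fits that left out 1 library. With plain gene totals 35 of 36 levels per kilobase moved by less than 1 SD. The cause of these shifts was not tested. Depth limits Nyx most.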
